A study of Mus musculus with 10 samples.

Results

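Replication-dependent histone genes encode the bulk of the histones that package newly made DNA. They were taken here as the protein-coding genes of the histone clusters on chromosomes 13, 3 and 11, that is H1f1 to H1f6 and the numbered H2ac, H2bc, H2bu, H3c and H4c genes with H2aw (Hist1h, Hist2h and Hist3h in the older naming). Variants made outside S phase, and H1f0, were left out. The rule found 66 genes among the 35427 genes of the series, of which 6 encode the linker histone H1, 18 H2A, 18 H2B, 12 H3 and 12 H4. Of these, 54 lie on chromosome 13, 10 on chromosome 3 and 2 on chromosome 11.

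Expression was measured by sequencing ribosome-depleted total RNA of 10 male mouse ESC lines of C57BL/6 origin, 3 wt, 3 Tdg+/- and 4 Tdg-/-. Tdg encodes the glycosylase that excises formylated and carboxylated cytosine from DNA, and all lines came from timed matings of Tdg+/- parents. They were started on inactivated feeder cells, freed of them some passages before RNA was taken, and kept untreated on gelatin with 2i and LIF and without serum. Each line was 1 library, which mating gave which line is not stated, and every p-value rests on the spread from line to line.

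The nucleosome holds an octamer of H2A, H2B, H3 and H4, and H1 binds the DNA where it enters and leaves. Cells need these proteins in large amounts while DNA is copied, and the genes are switched on together as S phase begins. Their mRNAs carry no intron and end, in place of a poly(A) tail, in a short stem-loop that is bound by SLBP and governs how the mRNA is cut, translated and degraded. Libraries from total RNA capture these tailless mRNAs. In bulk RNA, more cells in S phase and more histone mRNA per cell cannot be told apart.

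The stem-loop is the part of the mRNA that these genes share across classes. It is shown here in the forms found in the reference transcripts (GENCODE, GRCm38), each with 1 example. Capitals mark the stem-loop, with stem arms of 6 bases around a loop of 4 bases, and 5 flanking bases stand on each side.
Form in 26 members of the H1, H2A, H2B and H3 classes: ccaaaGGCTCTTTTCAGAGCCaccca
Form in 6 members of the H1, H2B and H3 classes: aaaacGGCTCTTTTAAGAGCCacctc
Form in 6 H4 members: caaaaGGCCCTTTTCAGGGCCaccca
Form in H4c11 and H4c2: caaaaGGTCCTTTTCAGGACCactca
Form in H4c14 and H4c9: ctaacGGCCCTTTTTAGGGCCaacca
Form in H4c1: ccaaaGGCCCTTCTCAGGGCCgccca
Form in H3c8: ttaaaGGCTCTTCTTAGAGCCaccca
Form in H2ac20: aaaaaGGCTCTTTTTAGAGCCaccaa
A stem-loop of this pattern was found after the stop codon in at least 1 transcript of 45 of the 66 members, 21 to 58 bases past it. In 17 of the other 21 members every reference transcript ended under 50 bases past the stop codon. The remaining 4 members, all H2B genes, had 50 or more bases there without a match. Among the 45 with a stem-loop, the reference transcript of 22 ran on for over 100 bases past it. Which of these ends the reads came from was not tested. The 4 forms found in H4 genes were found in no other class.

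Many of these genes are near copies of each other, which limits what can be said about any 1 gene. A read of 80 bases was taken as unique to a gene where no transcript of another gene holds the same 80 bases. At least 50% of the windows were unique in 39 of the 66 members, with a median of 99.35% in H1, 33.25% in H2A, 56.25% in H2B, 42.65% in H3 and 70.9% in H4. H2ac19 (Hist2h2aa2) had 0 unique windows and 0 reads in all 10 lines, while H2ac18 (Hist2h2aa1), with which it shares its sequence, had 15334 to 38298 reads. Since Salmon assigns shared reads by estimation, sums over a class are given beside single genes.

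Depth was 31095285 to 39916039 reads in genes per line. Tdg was measured at 86.4 to 93.1 CPM (the count scaled to library size with TMM factors) in the wt lines, 40.3 to 45.9 in the Tdg+/- lines and 7.75 to 10.6 in the Tdg-/- lines, each line matching its label. All 10 ESC markers tested were expressed, with Pou5f1 at 1015 to 1892 CPM, and the 10 fibroblast markers of feeder cells summed to 6.77 to 54.1 CPM per line. In each genotype line 1 lay farthest from the others. The chi-square per gene between the counts of 2 lines was 53.9 and 72 for wt line 1 against 20.8 for wt lines 2 and 3, and 42.3 and 57.4 for Tdg+/- line 1 against 26.6 for lines 2 and 3. For Tdg-/- line 1 it was 87 to 142.4, against 18.9 to 27.1 between any pair of lines 2 to 4. Values without Tdg-/- line 1 are given beside the members that the comparisons of Tdg-/- ESCs turn on. This line was singled out from these same counts, so calls made without it are a description and no independent support.

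Of the 66 members, 63 reached 20 reads in at least 1 line and 58 had at least 100 reads in every line. The 3 members below 20 reads were H2ac19, H2ac23 and H2bc23. H2bc21 (Hist2h2be) was near that floor with 9 to 23 reads per line. The testis-type genes were low as well, with 64 to 131 reads for H1f6, 9 to 40 for H2ac1 and 16 to 52 for H2bc1. By summed CPM the H2B class was the highest of the 5 classes in every line. TPM divides reads by an effective length fitted by Salmon. By summed TPM, H2B genes held 46.01% to 53.67% of the members' total in a line and H4 genes 20.74% to 29.77%. H3 genes held 7.18% to 9.47%, H2A genes 6.92% to 9.15% and H1 genes 7.09% to 8.31%. These shares rest on the fitted lengths, which were 131 for H2bc18 (381 bases) but 1307.4 to 1543.8 for H2ac18 (586 bases). In CPM the wt means were 4079 for H2B, 3685 for H4, 3082 for H1, 2019 for H3 and 1695 for H2A. How far either order reflects mRNA amounts was not tested.

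In CPM, Tdg-/- lines 2 to 4 had the highest summed level of histone mRNA and wt line 3 the lowest. The sum of all 66 members was 16960.4, 13994 and 12723 CPM in wt lines 1 to 3, with a mean of 14559 ± 2174 (SD, n = 3). It was 15411, 16009 and 17235 CPM in the Tdg+/- lines, with a mean of 16218 ± 930.2 (SD, n = 3). In the Tdg-/- lines it was 15413, 21059.9, 20262 and 18911 CPM, with a mean of 18911 ± 2495 (SD, n = 4). Tdg-/- lines 2 to 4 lay above every other line, while Tdg-/- line 1 lay within the range of the wt lines. The log2 ratio of the means was 0.16 for Tdg+/- over wt, 0.38 for Tdg-/- over wt and 0.22 for Tdg-/- over Tdg+/-. Without line 1 the ratio of Tdg-/- over wt was 0.46. By class, with all lines, it was 0.30 for H1, 0.45 for H2A, 0.39 for H2B, 0.30 for H3 and 0.43 for H4. In the H3 sum, Tdg-/- line 4 at 2385 CPM lay below wt line 1 at 2451 and Tdg+/- line 3 at 2479 CPM. The ratios describe sums over chosen genes and were not tested. The share of all reads on transcripts under 500 bases, as many histone mRNAs are, was also highest in these lines, at 6.72%, 6.04% and 6.11% in Tdg-/- lines 2 to 4 against 4.82% to 5.37% in the 7 other lines. With the members' own transcripts left out it was 5.41% to 6.07% against 4.26% to 4.87%. The part of this in the histone levels was not tested.

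**Figure D1:**
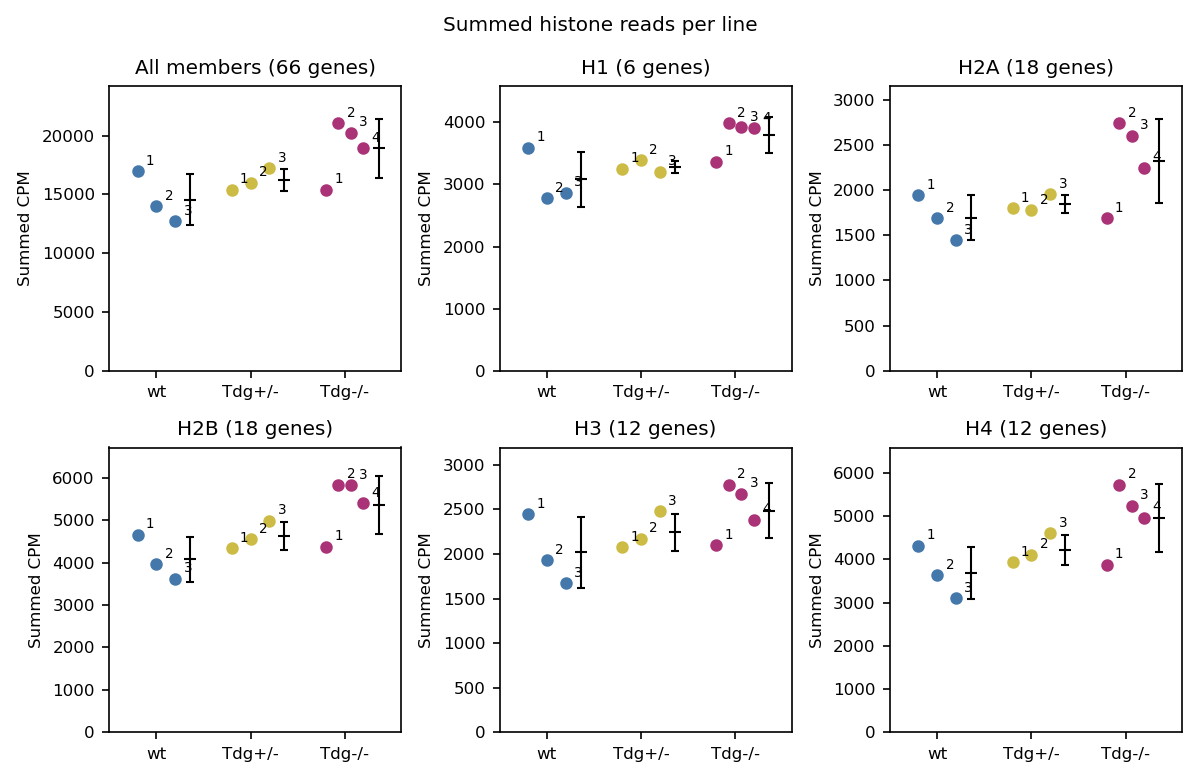
Summed CPM of the histone genes, in all and by class, in the 10 lines. Points are single lines with their number, and the bar beside each group is the mean and SD (n = 3, 3 and 4). Tdg-/- lines 2 to 4 are the highest lines for the sum of all members, while Tdg-/- line 1 lies among the wt and Tdg+/- lines.

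The size of this difference and the order of the lines depended on the scale. As a share of reads, without TMM factors, the members held 1.92% and 1.90% in Tdg-/- lines 2 and 3, still the highest, but 1.76% in line 4, below the 1.79% of Tdg+/- line 3 and the 1.78% of wt line 1. In TPM, which divides reads by an effective length and fixes the total per line, the summed level was 24719.5 ± 4148 in wt (SD, n = 3), 27957 ± 1659 in Tdg+/- (SD, n = 3) and 27013 ± 931 in Tdg-/- lines (SD, n = 4). The highest lines were then Tdg+/- line 3 at 29829.7 and wt line 1 at 29245, above all Tdg-/- lines at 25937 to 28133, and wt line 3 was still the lowest at 21099. The log2 ratio in TPM was 0.13 for Tdg-/- over wt and -0.05 for Tdg-/- over Tdg+/-. The median of 9792 well-read genes also moved between scales, for Tdg-/- against wt from -0.03 in CPM with TMM factors to -0.15 without factors and -0.20 in TPM. Relative to that median, 58 members lay higher by a median of 0.44, 0.42 and 0.26 on these scales. For Tdg-/- against Tdg+/- the same values were 0.22, 0.22 and 0.08, and for Tdg+/- against wt they were 0.15, 0.15 and 0.12.

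The members moved together from line to line. Among the 58 members with a mean of at least 5 CPM, wt line 3 was the lowest of the 10 lines for 43, Tdg-/- line 2 the highest for 26 and Tdg-/- line 3 the highest for 17. These counts were not made over all genes. Within the wt lines, line 3 was the lowest for 79.37% of the members tested and 33.95% of all genes tested. The median deviation of these members from their own median over the lines, in log2(CPM + 0.5), was 0.04, -0.19 and -0.37 in wt lines 1 to 3. It was -0.06, -0.04 and 0.12 in the Tdg+/- lines and -0.10, 0.32, 0.34 and 0.14 in Tdg-/- lines 1 to 4. The spread within the wt lines was thus close to that within the Tdg-/- lines. Over all 9636 genes at this level the median lay between -0.03 and 0.01 in every line.

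**Figure D2:**
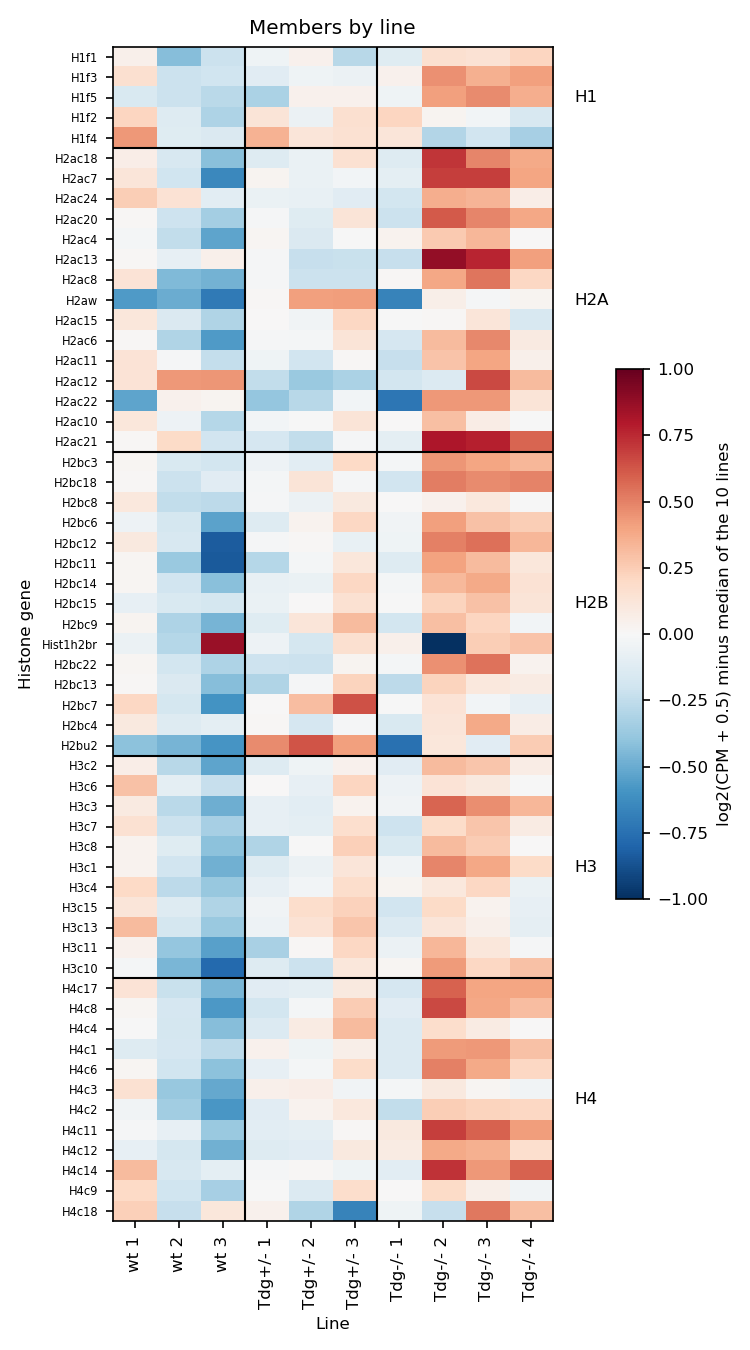
Deviation of each of 58 histone genes from its median over the 10 lines, in log2(CPM + 0.5), with genes by class and lines by genotype. The median deviation is -0.37 in wt line 3 and 0.32 and 0.34 in Tdg-/- lines 2 and 3.

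Tdg+/- ESCs, which lack 1 Tdg allele, were compared with wt ESCs, both undifferentiated. As given below, the Tdg+/- lines also differed in chromosome 11 genes, and the design cannot tell the 2 differences apart. No member was called by edgeR's quasi-likelihood test with Benjamini-Hochberg adjustment at an adjusted p under 0.05, where 0.0288% of 13880 genes were called. DESeq2 called 3 of 63 members and 5.36% of all genes. At an unadjusted p under 0.05, edgeR had 2 of 63 members higher and 1 lower, against 9.55% and 7.41% of all genes. The 2 higher ones were the members on chromosome 11. These counts depended on single lines: without wt line 1 they were 27 higher and 1 lower, against 12.8% and 10.4% of all genes, and without Tdg+/- line 1 they were 7 and 2, against 12.4% and 10.1%. The median log2 fold change of the members was 0.14, against -0.02 over all genes, and 49 of the 63 were positive. It was 0.28 without wt line 1 and 0.04 without wt line 3.

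H2bu2 (Hist3h2ba) and H2aw (Hist3h2a) encode an H2B and an H2A of the small cluster on chromosome 11. H2bu2 had 8.97, 8.59 and 7.87 CPM in the wt lines and 16.9, 19.0 and 16.2 CPM in the Tdg+/- lines, so that every Tdg+/- line was above every wt line. Its log2 fold change was 1.03 (SE 0.138, adjusted p = 0.0609 from edgeR), which missed the threshold. H2aw had 56.3, 59.1 and 50.9 CPM in the wt lines against 84.4, 111 and 112 CPM in the Tdg+/- lines, again without overlap. Its log2 fold change was 0.88 (SE 0.142, adjusted p = 0.0814 from edgeR). Both were called by DESeq2, at an adjusted p of 3.14e-07 for H2bu2 and 6.87e-06 for H2aw. Without Tdg+/- line 1, edgeR called them at an adjusted p of 0.0328 and 0.028.

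The promoters of both genes are shown because these genes were the 2 with the smallest p in this comparison. The windows run from 250 bases before to 50 bases after the start of the gene (RefSeq, GRCm38.p6), written 5′ to 3′ on the strand of the gene. Capitals mark the core promoter motif TATAAA, the motif CCAAT known from many histone promoters, the octamer ATTTGCAT bound by POU factors and the H1 box AAACACA, or their reverse complements.
H2aw (chr11:58954435-58954734, plus strand): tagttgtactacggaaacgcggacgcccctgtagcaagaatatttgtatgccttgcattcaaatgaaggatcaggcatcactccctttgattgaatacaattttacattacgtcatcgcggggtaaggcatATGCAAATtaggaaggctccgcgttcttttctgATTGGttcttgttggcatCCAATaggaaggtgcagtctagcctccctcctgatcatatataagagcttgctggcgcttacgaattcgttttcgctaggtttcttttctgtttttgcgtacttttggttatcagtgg
H2bu2 (chr11:58948661-58948960, plus strand): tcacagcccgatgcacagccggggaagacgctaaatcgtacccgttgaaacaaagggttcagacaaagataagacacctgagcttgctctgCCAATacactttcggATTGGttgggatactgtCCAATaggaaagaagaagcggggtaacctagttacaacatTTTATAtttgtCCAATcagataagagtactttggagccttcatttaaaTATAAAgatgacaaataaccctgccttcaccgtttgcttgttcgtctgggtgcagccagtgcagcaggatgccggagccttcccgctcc
The window of H2aw held the octamer and CCAAT but no TATAAA, and that of H2bu2 held TATAAA and CCAAT but no octamer. A match of letters is a description and shows no binding.

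Other genes of chromosome 11 were also higher in Tdg+/- ESCs. For the 1117 tested genes of this chromosome that are not members, the median log2 fold change was 0.42, and 54.0% were higher at an unadjusted p under 0.05. On chromosomes 13 and 3 the medians of the other genes were -0.08 and -0.07. Per line, the median deviation of chromosome 11 genes was 0.195, 0.415 and 0.257 in the Tdg+/- lines and -0.09, -0.082 and -0.124 in the wt lines. In log2 fold change H2aw lay above 91.8% and H2bu2 above 95.7% of these genes. The part of the chromosome-wide difference in the result on H2aw and H2bu2 was not tested.

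The 9 tested neighbours of H2aw and H2bu2, the 4 on either side and the 1 between them, were looked at after the values of both genes were seen. All 9 log2 fold changes were positive, and 6 had an unadjusted p under 0.05, among them Rnf187 with 0.65 and Guk1 with 0.66. Gm12258 and 2810021J22Rik, at 0.14 and 0.10, were not among these. H2bu1-ps, a histone pseudogene between them, had 5.56, 6.78 and 5.96 CPM in the wt lines and 13.1, 14.0 and 12.6 CPM in the Tdg+/- lines. Its adjusted p from edgeR was 0.0665. H3f4, on the other side of H2aw, had a log2 fold change of 1.68 (adjusted p = 0.109 from edgeR), at no more than 6.56 CPM in any line. None of the 9 passed the adjusted threshold.

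H2ac12 (Hist1h2ah), an H2A gene of chromosome 13, was the member lower at an unadjusted p under 0.05. It had 30.7, 37.7 and 37.9 CPM in the wt lines and 23.5, 21.4 and 22.3 CPM in the Tdg+/- lines, all below the wt range. The log2 fold change was -0.67 (SE 0.127, adjusted p = 0.0878 from edgeR), and DESeq2 called it at an adjusted p of 0.000454. Of its windows 10.1% are unique, and whether its reads were shared out with other H2A genes was not tested. H2bc7 (Hist1h2bf), an H2B gene with the next smallest p, had a log2 fold change of 0.49 (SE 0.227, adjusted p = 0.324 from edgeR) and lines that overlapped.

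In most other members the Tdg+/- and wt lines overlapped. Every Tdg+/- line was above every wt line for 4 of the 63 members, H2aw, H2bu2, H2bc15 and H4c1, and below for H2ac12, against 12.6% and 9.09% of all genes. By class, the median log2 fold change was 0.12 in H1, 0.085 in H2A, 0.15 in H2B, 0.16 in H3 and 0.19 in H4. All 12 H3 genes and 10 of the 12 H4 genes were positive.

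Tdg-/- ESCs, which lack both alleles, were compared with the same wt lines as above. No member was called by edgeR with all 4 lines, where 0.0718% of 13926 genes were, while DESeq2 called 2, H4c11 and H1f5, and 0.704% of all genes. At an unadjusted p under 0.05, 31 of 63 members were higher and 0 lower, where 9.13% and 6.79% of all genes were. The median log2 fold change of the members was 0.40, against -0.01 over all genes, and 57 of the 63 were positive. Every Tdg-/- line was above every wt line for 7 members and below for 0, against 4.47% and 5.33% of all genes. The 7 were H1f5, H2ac4, H2bc6, H2bc15, H3c10, H4c11 and H4c12. The count higher at an unadjusted p under 0.05 moved with single lines. It was 6 without wt line 3, 15 without wt line 2 and 41 without wt line 1, against 6.40%, 4.87% and 7.84% of all genes. It was 18 without Tdg-/- line 3, against 5.02% of all genes, and 20 without Tdg-/- line 2, where 554 of 13833 genes were.

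Without any other single line, edgeR called 0 members, where 0.0216% to 0.101% of all genes were called. Without Tdg-/- line 1, edgeR called 31 of 63 members, all of them higher and 0 lower, while 11.7% of 13897 genes were called higher and 10.5% lower. Of these 31 members, 29 had also been higher at an unadjusted p under 0.05 with all lines. They were 2 H1, 9 H2A, 9 H2B, 3 H3 and 8 H4 genes, and 22 of them had at least 50% unique windows. Tdg-/- lines 2 to 4 were all above every wt line for 36 of the 63 members, against 20.56% of all genes tested. They were all above Tdg-/- line 1 for 48, against 37.32% of all genes tested.

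**Figure D3:**
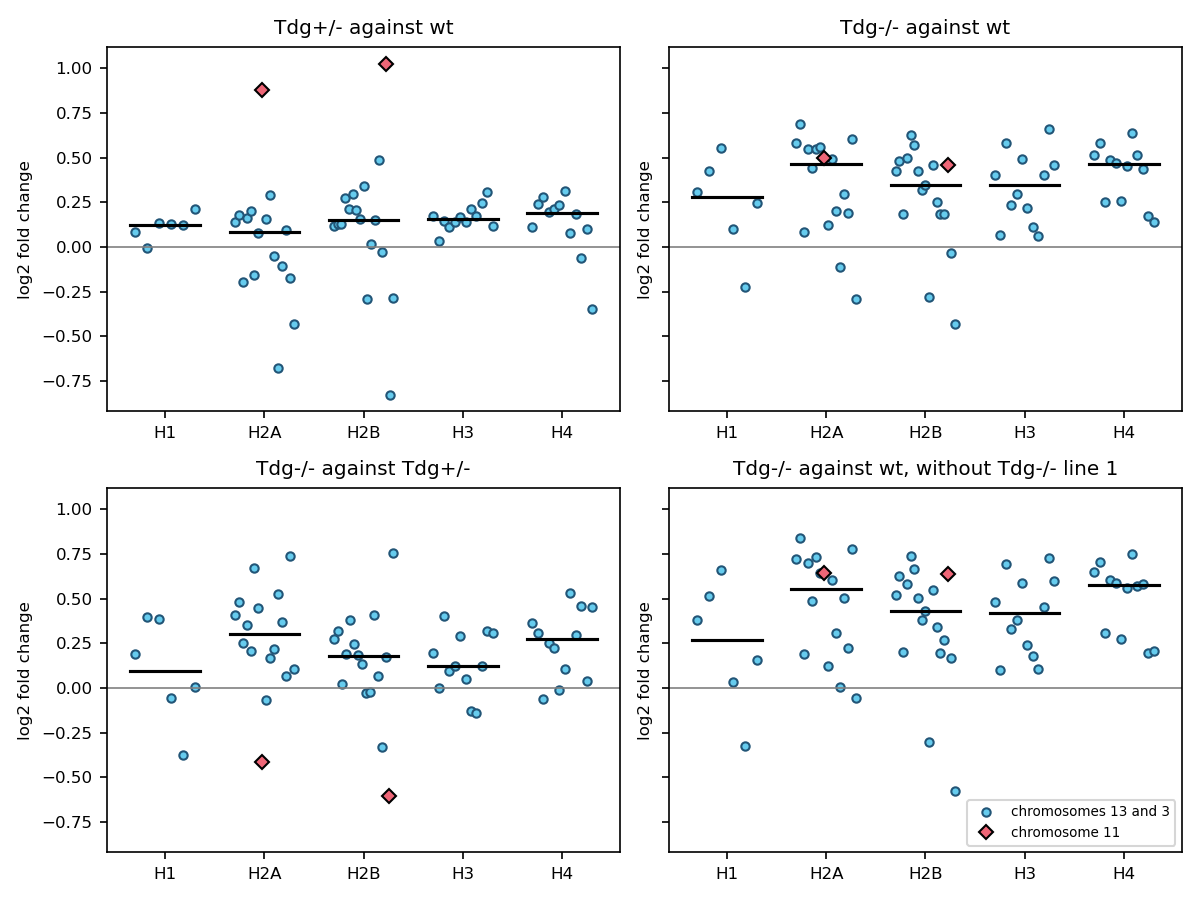
log2 fold change of each tested histone gene by class, for the 3 comparisons of genotypes and for Tdg-/- against wt without Tdg-/- line 1. Circles are genes of chromosomes 13 and 3, diamonds the 2 genes of chromosome 11, and black lines the class medians. The H4 median is 0.46 for Tdg-/- against wt, and the diamonds lie at 0.88 and 1.03 for Tdg+/- against wt.

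Of the 6 H1 genes, 5 had a positive log2 fold change in Tdg-/- against wt ESCs, with a class median of 0.28. The exception, H1f4, was not called and is given below. H1f5 (Hist1h1b) had 527, 505 and 488 CPM in the wt lines and 571, 779, 815 and 756 CPM in the Tdg-/- lines, with no overlap. Its log2 fold change was 0.55 (SE 0.144, adjusted p = 0.295 from edgeR), and 0.66 without line 1 (adjusted p = 0.0102 from edgeR). H1f3 (Hist1h1d) had 887, 683 and 690.1 CPM in wt and 817, 1093, 1016 and 1057 CPM in Tdg-/- lines, a log2 fold change of 0.43 (SE 0.15, adjusted p = 0.295 from edgeR) that was 0.51 (adjusted p = 0.0206 from edgeR) without line 1. Both are linker histones of dividing cells. H1f1 (Hist1h1a), the H1 gene with the most reads here, had 1329, 953 and 1105 CPM in wt and 1175, 1428, 1415 and 1484 CPM in Tdg-/- lines, which overlapped. It was not called without line 1 either (adjusted p = 0.0561 from edgeR).

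H1f2 (Hist1h1c) and H1f4 (Hist1h1e) were named after their values were seen. H1f4 had 226, 154 and 152 CPM in wt, 214, 183 and 186 CPM in Tdg+/- and 182, 137, 147 and 133 CPM in Tdg-/- lines. Tdg-/- line 1 was here the highest line of its genotype. The log2 fold change of H1f4 was -0.22 (SE 0.168, adjusted p = 0.475 from edgeR) against wt and -0.37 (SE 0.133, adjusted p = 0.0849 from edgeR) against Tdg+/- ESCs, the latter an unadjusted p under 0.05. Without line 1 the values were -0.32 (adjusted p = 0.174 from edgeR) and -0.48 (adjusted p = 0.0049 from edgeR). Its share of all H1 reads was 5.71% ± 0.528 in wt (SD, n = 3), 5.92% ± 0.601 in Tdg+/- (SD, n = 3) and 4.001% ± 0.955 in Tdg-/- lines (SD, n = 4), and 3.44%, 3.75% and 3.41% in Tdg-/- lines 2 to 4. H1f2 had 619, 487 and 431 CPM in wt and 619.7, 544, 523 and 478 CPM in Tdg-/- lines, a log2 fold change of 0.10 (SE 0.145).

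**Figure D4:**
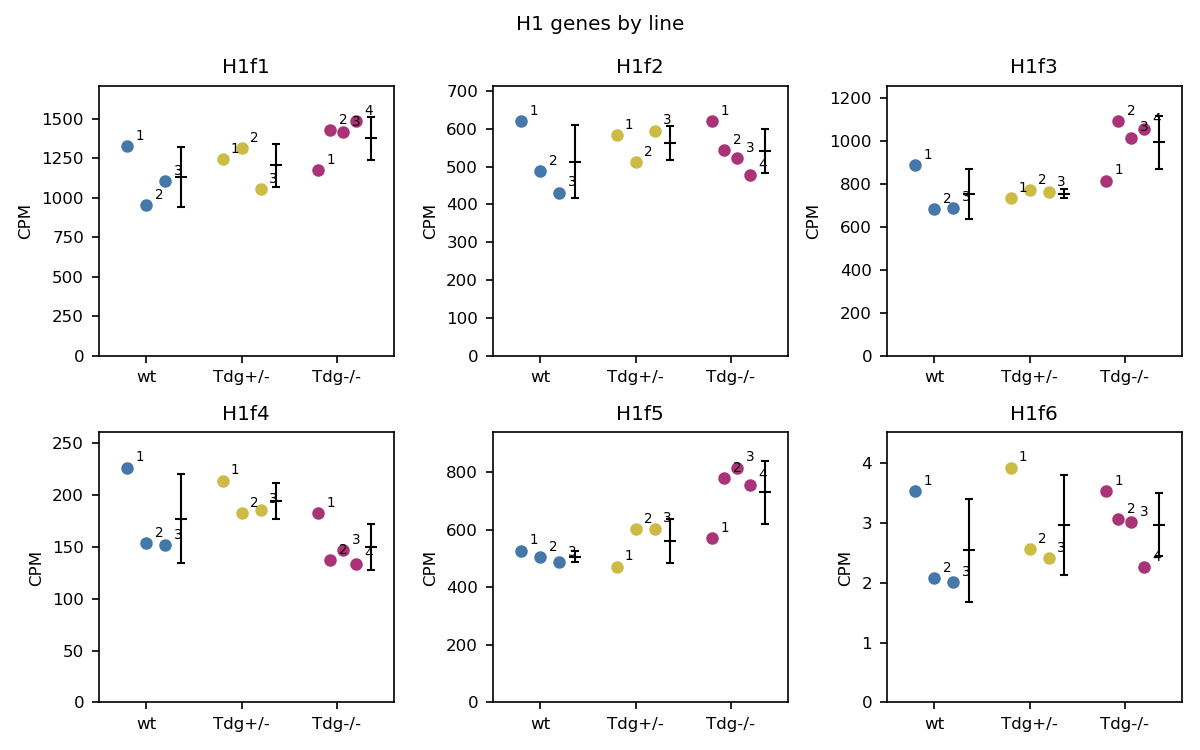
CPM of the 6 H1 genes in the 10 lines, with points numbered by line and a bar for the genotype's mean ± SD (n = 3, 3 and 4). H1f1, H1f3 and H1f5 are higher in Tdg-/- lines 2 to 4 than in line 1, and H1f2 and H1f4 are lower.

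H2A genes, which pair with H2B in the nucleosome, had a class median of 0.47 in Tdg-/- against wt ESCs, with 14 of 16 tested genes positive. H2ac18, the H2A gene with the most reads, had 672, 575 and 481 CPM in the wt lines and 587, 1056, 902 and 836 CPM in the Tdg-/- lines, a log2 fold change of 0.58 (SE 0.202, adjusted p = 0.295 from edgeR). H2ac7 (Hist1h2ad) had 277, 222 and 163 CPM in wt and 238, 412, 411 and 335 CPM in Tdg-/- lines. In both genes line 1 lay within the wt range and lines 2 to 4 lay above it. Without line 1 edgeR called both, at an adjusted p of 0.0144 for H2ac18 and 0.0202 for H2ac7. H2ac24 (Hist1h2ap) had a log2 fold change of 0.09 (SE 0.162) and lines that overlapped.

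H2B genes had a class median of 0.35, with 14 of 17 positive. H2bc18 (Hist2h2bb) had 702, 599 and 642 CPM in wt lines and 608, 994, 968 and 984 CPM in Tdg-/- lines, a log2 fold change of 0.48 (SE 0.182, adjusted p = 0.296 from edgeR) that was 0.63 without line 1 (adjusted p = 0.0102 from edgeR). H2bc3 (Hist1h2bb), the H2B gene with the most reads, had 816, 727 and 709.6 CPM in wt and 797, 1094, 1062 and 1012 CPM in Tdg-/- lines. Both genes were at or below the highest wt line in Tdg-/- line 1 and above it in lines 2 to 4. Without line 1 H2bc3 had a log2 fold change of 0.52 (adjusted p = 0.0104 from edgeR). H2bc8 (Hist1h2bg), at 543 to 697 CPM in wt and 649 to 698 CPM in Tdg-/- lines, had a log2 fold change of 0.18 (SE 0.122) and lines that overlapped.

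On chromosome 11, H2bu2 had 7, 13.1, 11.1 and 14.5 CPM and H2aw 52.5, 86.9, 82.9 and 85.2 CPM in Tdg-/- lines 1 to 4. For both, lines 2 to 4 lay above every wt line and line 1 did not. The log2 fold change against wt was 0.46 (SE 0.233, adjusted p = 0.342 from edgeR) for H2bu2 and 0.50 (SE 0.182, adjusted p = 0.295 from edgeR) for H2aw, where the other chromosome 11 genes had a median of 0.06. Without line 1 edgeR called both, with 0.64 (adjusted p = 0.0186 from edgeR) and 0.65 (adjusted p = 0.0102 from edgeR). For H2bu2 the sign turned with 3 surrogate variables (-0.132).

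H3 and H4 form the core tetramer of the nucleosome. The H3 median was 0.35 and the H4 median 0.46, with all 12 genes positive in each class. H3c10 (Hist1h3h) had 73.4, 54.3 and 43.4 CPM in wt and 75.8, 100.1, 86.3 and 91.5 CPM in Tdg-/- lines, a log2 fold change of 0.66 (SE 0.181, adjusted p = 0.295 from edgeR) that was 0.73 (adjusted p = 0.0277 from edgeR) without line 1, though 6.6% of its windows are unique. The H3 genes with the most reads, H3c2, H3c6 and H3c3, had log2 fold changes of 0.40 (SE 0.167), 0.07 (SE 0.141) and 0.58 (SE 0.184), and their lines overlapped. H3c3 was called without line 1 at an adjusted p of 0.0191, while H3c2 and H3c6 had 0.0546 and 0.612.

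H4c11 (Hist1h4j) had the smallest p of all members in both comparisons of Tdg-/- ESCs. It had 177, 169 and 138 CPM in the wt lines, 166, 167 and 180.3 CPM in the Tdg+/- lines and 191, 289, 269 and 239 CPM in the Tdg-/- lines. All 4 Tdg-/- lines lay above all 6 other lines. Its log2 fold change was 0.64 (SE 0.165, adjusted p = 0.295 from edgeR) against wt and 0.53 (SE 0.145, adjusted p = 0.0506 from edgeR) against Tdg+/- ESCs, and 78.7% of its windows are unique. It was called in both comparisons without line 1, with 0.75 (adjusted p = 0.0104 from edgeR) and 0.63 (adjusted p = 0.00204 from edgeR). H4c12 (Hist1h4k) had 151, 142 and 115 CPM in wt and 170.0, 208, 205 and 181 CPM in Tdg-/- lines, a log2 fold change of 0.51 (SE 0.137) that was 0.57 (adjusted p = 0.0182 from edgeR) without line 1. The H4 genes with the most reads, H4c17, H4c8 and H4c4, had log2 fold changes of 0.51 (SE 0.202), 0.58 (SE 0.201) and 0.25 (SE 0.137), and their lines overlapped. H4c17 and H4c8 were called without line 1 at an adjusted p of 0.0222 and 0.021, while H4c4 had 0.0933.

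**Figure D5:**
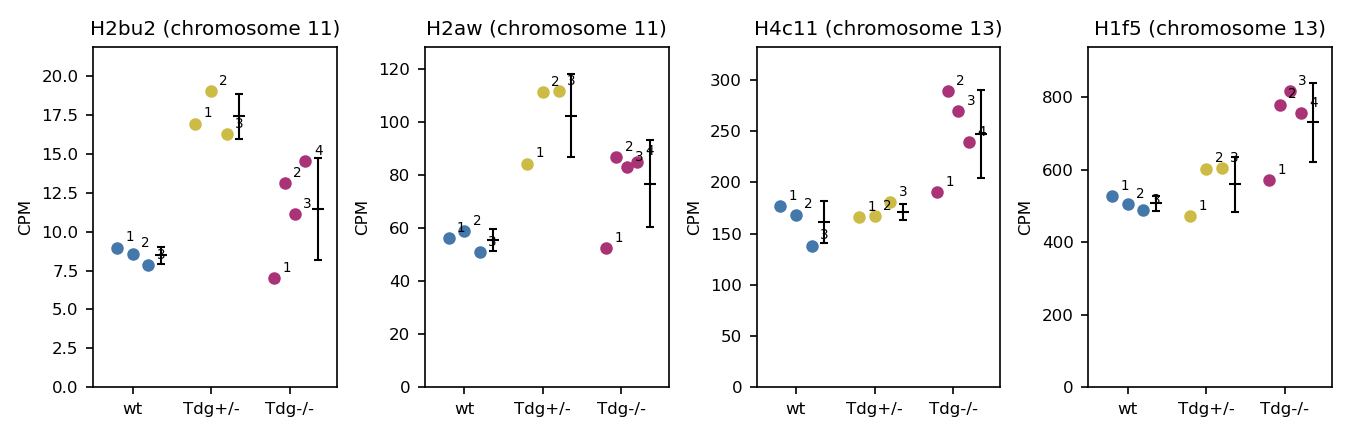
CPM of H2bu2, H2aw, H4c11 and H1f5 in the 10 lines, with points numbered by line and a bar for the genotype's mean ± SD (n = 3, 3 and 4). All 4 Tdg-/- lines lie above the 6 other lines for H4c11, and the Tdg+/- lines are the highest for H2bu2.

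The promoters of H4c11 and H1f5 are shown as the members called by DESeq2 in this comparison, in the same way and with the same letters in capitals.
H4c11 (chr13:21734784-21735083, plus strand): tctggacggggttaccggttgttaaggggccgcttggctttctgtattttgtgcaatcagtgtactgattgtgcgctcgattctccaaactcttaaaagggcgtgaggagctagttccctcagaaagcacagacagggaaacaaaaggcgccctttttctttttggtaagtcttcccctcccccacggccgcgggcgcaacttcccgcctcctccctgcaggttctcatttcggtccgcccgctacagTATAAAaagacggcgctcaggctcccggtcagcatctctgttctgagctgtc
H1f5 (chr13:21780576-21780875, minus strand): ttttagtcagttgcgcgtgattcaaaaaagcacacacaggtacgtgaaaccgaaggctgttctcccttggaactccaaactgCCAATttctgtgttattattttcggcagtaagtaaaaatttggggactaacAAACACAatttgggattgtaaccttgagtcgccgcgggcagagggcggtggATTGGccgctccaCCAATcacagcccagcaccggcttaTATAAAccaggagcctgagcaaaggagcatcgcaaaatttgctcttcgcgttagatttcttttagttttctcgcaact
The window of H1f5 held TATAAA 28 bases before the start, CCAAT 53 bases before it and the H1 box 117 bases before it. That of H4c11 held TATAAA 2 bases before the annotated start and none of the other letters. A window was given for 61 of the 66 members. On either strand, TATAAA was found in 57.4% of them and in 13.6% of the 32851 windows of all genes. CCAAT was found in 86.9% and 37.4%, ATTTGCAT in 23.0% and 1.7%, and AAACACA in 14.8% and 7.2%. The octamer was found in 7 of 18 H2A and 7 of 16 H2B windows and in 0 of the other classes. The H1 box was found in 5 of 6 H1, 2 of 18 H2A and 2 of 16 H2B windows and in 0 H3 or H4 windows. CCAAT was found in 3 of 11 H4 windows and in every window of the other classes. In 10 pairs of an H2A and an H2B gene the windows overlap, 3 of them with the octamer in both, so these windows are not independent.

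Tdg-/- ESCs were also compared with Tdg+/- ESCs, a comparison that shares its lines with the others. No member was called by edgeR with all lines, where 9.03% of 13962 genes were, and DESeq2 called 10 of 62 members and 23.6% of all genes. At an unadjusted p under 0.05, 14 of 62 members were higher and 3 lower, against 16.4% and 18.8% of all genes. The median log2 fold change of the members was 0.20, against -0.02 over all genes. All Tdg-/- lines lay above all Tdg+/- lines for H1f3, H2ac8, H2ac12 and H4c11 and below them for H1f4 and H2bu2, that is for 4 and 2 members against 11.4% and 13.1% of all genes. The count higher at an unadjusted p under 0.05 was 6 without Tdg+/- line 1, Tdg+/- line 2 or Tdg-/- line 3, where 17.1%, 12.1% and 11.3% of all genes were. It was 7 without Tdg-/- line 2, where 1525 of 13872 genes were, and 36 without Tdg-/- line 1, where 23.3% were. Without Tdg-/- line 1, edgeR called 26 members higher and 2 lower, H1f4 and H2bu2, against 18.4% and 22.2% of 13939 genes.

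H2ac21 (Hist2h2ab), an H2A gene of chromosome 3, had 6.97, 6.58 and 7.83 CPM in Tdg+/- and 7.36, 14.3, 13.9 and 12.1 CPM in Tdg-/- lines, a log2 fold change of 0.74 (SE 0.221, adjusted p = 0.0587 from edgeR). Tdg-/- line 1 lay within the Tdg+/- range and lines 2 to 4 above it. Without line 1 it was 0.91 (adjusted p = 0.00166 from edgeR). H2ac8 (Hist1h2ae) and H1f3 had log2 fold changes of 0.45 (SE 0.139, adjusted p = 0.064 from edgeR) and 0.40 (SE 0.125, adjusted p = 0.0647 from edgeR). Without line 1 these were 0.53 (adjusted p = 0.00633 from edgeR) and 0.48 (adjusted p = 0.00255 from edgeR). H2bu2 and H2aw were lower, at -0.60 (SE 0.217, adjusted p = 0.0881 from edgeR) and -0.41 (SE 0.185, adjusted p = 0.141 from edgeR), where the other chromosome 11 genes had a median of -0.38. Without line 1 H2bu2 was called with -0.43 (adjusted p = 0.0277 from edgeR) and H2aw was not, with -0.27 (adjusted p = 0.0978 from edgeR).

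A few members differed widely within a genotype. Hist1h2br, an H2B gene, had 87.3, 74.6 and 166 CPM in the wt lines and 94.6, 40.7, 108 and 111 CPM in the Tdg-/- lines, but 0.2% of its windows are unique. H2ac22 (Hist1h2an) had 17.9, 40.3, 40.3 and 32.6 CPM and H2ac13 (Hist1h2ai) 72.2, 156, 144 and 113 CPM in Tdg-/- lines 1 to 4, with line 1 the lowest in both. H2ac13 was called against wt without line 1 at an adjusted p of 0.0116, and H2ac22 had 0.0594. Of their windows 15.6% and 10.8% are unique. The testis-type genes H1f6, H2ac1 and H2bc1 had log2 fold changes of 0.25 (SE 0.257), -0.29 (SE 0.496) and -0.03 (SE 0.526) in Tdg-/- against wt.

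Genes that act on histone mRNA were read beside the members. Of 20 genes of histone transcription, 3′ processing and decay, 0 were called in Tdg+/- or Tdg-/- against wt ESCs. At an unadjusted p under 0.05, 2 were higher in the former comparison and 0 differed in the latter, with medians of 0.06 and 0.002. Of all genes, 9.55% were higher in the former, and 9.13% were higher and 6.79% lower in the latter. Slbp, which binds the stem-loop, had 138 to 143 CPM in wt, 136 to 144 in Tdg+/- and 136 to 151 in Tdg-/- lines. Npat, the coactivator of histone genes at S phase entry, had 58.9, 77.4 and 78.3 CPM in wt and 80.05, 53.3, 56.9 and 58.4 CPM in Tdg-/- lines, lowest in Tdg-/- lines 2 to 4. These 3 lines were below every wt line for 24.38% of all genes tested. In Tdg-/- against Tdg+/- ESCs 2 of the 20 genes fell, Lsm11 of the U7 particle by 0.55 (adjusted p = 0.0355 from edgeR) and Sympk, a scaffold of the cleavage complex, by 0.69 (adjusted p = 0.0399 from edgeR) on the log2 scale. Lsm11 lies on chromosome 11, whose other genes had a median of -0.38 in this comparison. Of all genes, 9.03% were called in it. That share fell to 0.0864% to 0.158% when any line other than line 1 of either genotype was left out. The calls of list genes given here and below rest on all lines. Without Tdg-/- line 1, edgeR called 3 of the 20 higher and 4 lower against wt, where 11.7% and 10.5% of all genes were, and 4 higher and 7 lower against Tdg+/- ESCs, where 18.4% and 22.2% were. Slbp was not among them in either comparison, and Npat fell against Tdg+/- ESCs with -0.43 (adjusted p = 0.00591 from edgeR). Against wt Npat was not called, with -0.32 (adjusted p = 0.0918 from edgeR). Among the 4 lower against wt were Casp8ap2 with -0.46 (adjusted p = 0.0284 from edgeR) and Pou2f1 with -0.44 (adjusted p = 0.0424 from edgeR).

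Of 18 histone chaperones and assembly factors, 0 were called against wt in either genotype. Compared with Tdg+/- ESCs, Tdg-/- ESCs differed in 3 of them, where 9.03% of all genes were called, a share that depended on single lines as given above. Rbbp4, a subunit of CAF-1 and other complexes, rose by 0.60 (adjusted p = 0.0323 from edgeR) on the log2 scale. Chaf1a, the large subunit of CAF-1, and Tonsl fell with -0.60 (adjusted p = 0.0439 from edgeR) and -0.90 (adjusted p = 0.0323 from edgeR). Without line 1, edgeR called 1 of the 18 higher and 3 lower against wt, where 11.7% and 10.5% of all genes were. Against Tdg+/- ESCs it called 4 higher and 8 lower, where 18.4% and 22.2% of all genes were.

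Replication-independent variants had a median log2 fold change of 0.34 in Tdg-/- against wt over 11 tested genes, with 0 called in any comparison. At an unadjusted p under 0.05, 3 were higher and 0 lower in that comparison, against 9.13% and 6.79% of all genes. H2az1, the variant H2A.Z, had 1787, 1765 and 1756 CPM in wt lines and 1878, 3400.0, 2892 and 3303 CPM in Tdg-/- lines, a log2 fold change of 0.72 (adjusted p = 0.295 from edgeR). H3f3a, an H3.3 gene, had 835, 999 and 1149 CPM in wt and 879.8, 1593, 1472 and 1394 CPM in Tdg-/- lines. Tdg-/- line 1 was the lowest of its genotype for both. Without it, edgeR called 7 of the 11 higher and 1 lower against wt, where 11.7% and 10.5% of all genes were. Among the 7 were H2az1 at 0.88 (adjusted p = 0.00677 from edgeR) and H3f3a at 0.61 (adjusted p = 0.0142 from edgeR). Against Tdg+/- ESCs 5 were called higher and 0 lower, where 18.4% and 22.2% of all genes were.

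The median log2 fold change of 40 genes of S phase and DNA replication was 0.05 in Tdg+/- and 0.17 in Tdg-/- against wt ESCs. In both comparisons 0 were called. An unadjusted p under 0.05 was reached by 7 higher genes and 1 lower gene in the latter, against 9.13% and 6.79% of all genes. The median deviation of the members went from 0.04 in wt line 1 to -0.37 in wt line 3. That of the S phase genes was -0.04, -0.04 and -0.02 in wt lines 1 to 3. It was -0.036, 0.07 and 0.042 in the Tdg+/- lines and 0.02, 0.06, 0.015 and 0.029 in the Tdg-/- lines. The members were at -0.06, -0.04 and 0.12 in the Tdg+/- lines and at -0.10, 0.32, 0.34 and 0.14 in the Tdg-/- lines. Cdt1, which licenses replication origins, had a log2 fold change of -0.65 (adjusted p = 0.0493 from edgeR) in Tdg-/- against Tdg+/- ESCs and so fell. There 9.03% of all genes were called, a share that depended on single lines as given above. Without Tdg-/- line 1, edgeR called 12 of the 40 higher and 2 lower against wt, where 11.7% and 10.5% of all genes were. Against Tdg+/- ESCs it called 12 higher and 5 lower, where 18.4% and 22.2% of all genes were.

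For 26 genes of G2 and mitosis the median in Tdg-/- against wt was -0.09, with 0 called. An unadjusted p under 0.05 was reached by 2 higher and 5 lower genes, against 9.13% and 6.79% of all genes. In Tdg-/- against Tdg+/- ESCs Ccnb1, the mitotic cyclin B1, rose with 0.46 (adjusted p = 0.0478 from edgeR), and Aurkb, a mitotic kinase, and Mki67, a marker of proliferation, fell with -0.49 (adjusted p = 0.0363 from edgeR) and -0.79 (adjusted p = 0.0488 from edgeR) on the log2 scale. In this comparison 9.03% of all genes were called, a share that depended on single lines as given above. Aurkb lies on chromosome 11, with the median of -0.38 given above. Without Tdg-/- line 1, edgeR called 4 of the 26 higher and 9 lower against wt, where 11.7% and 10.5% of all genes were. Against Tdg+/- ESCs it called 3 higher and 11 lower, where 18.4% and 22.2% of all genes were. The part of the cell cycle in the histone levels was not tested.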

How the data were processed

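RNA of 10 male ESC lines (3 wt, 3 Tdg+/-, 4 Tdg-/-) was sequenced by the authors from stranded total RNA libraries as single-end reads of 80 bases, and transcripts of GRCm39 were quantified with Salmon 0.8.1. Each deposited table lists, by transcript, an estimated count, not always whole, and a TPM that the authors' run of Salmon derived from effective lengths. Those lengths differ between lines for short histone transcripts, so TPM served for sums, shares and medians of fold changes and for no test.

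Counts were added up by gene, then rounded. GENCODE M21 (GRCm38) assigned 98.97% of 116357 transcripts to genes, and unassigned reads (0.472% to 0.499%) were left out. Since the builds differ, only the promoter windows carry coordinates, in the build of RefSeq. The members and lists were chosen with earlier results of these data known. The member Hist1h2br keeps its older symbol.

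A gene was tested where any compared line reached 20 reads, with edgeR 4.0.16 (quasi-likelihood, TMM) in R 4.3.3, separately for each pair of genotypes and with Benjamini-Hochberg adjustment over all genes tested. SE is the size of the log2 fold change over the root of F. Alternatives were RLE factors, DESeq2 1.42.0, no filter, a minimum of 100 reads, all 10 lines in 1 fit, the replicate number as a block, 3 surrogate variables (sva 3.50.0) and leaving out each line. CPM without factors was added after seeing the data. The test was checked on simulated counts, with less spread between lines and larger changes than most members had. That check therefore does not cover changes of the members' size.

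Named members were, by rule, the 3 of each class with the highest mean CPM, those of chromosome 11, the 4 with the smallest p per comparison, the testis-type genes and the 4 with the widest range within a genotype. Of each list, genes with an adjusted p under 0.05 were named, otherwise the 2 with the smallest p. All others were named after their values were seen. The libraries of each genotype differed by more than sampling noise (chi-square per gene of 18.9 or more), so none was counted as a repeat.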

Additional observations from a re-analysis of the deposited data

Results flagged for a closer look

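Among the 4 Tdg-/- lines, the gap between 1 line and the nearest of the others, as a share of the range of the 4 lines, was large for 4 of 37 quantities tested. It was 0.88 for the summed CPM of the H1 genes, 0.852 for that of the 2 genes on chromosome 11, 0.884 for H2aw and 0.933 for H2bc18, each above Dixon's critical value for 4 lines. In each case the line that lay apart was Tdg-/- line 1, which was the lowest. Its summed level was 3368 CPM for H1 and 59.5 CPM for chromosome 11, against 3911 to 3985 and 94.0 to 100.03 CPM in lines 2 to 4. Chance alone marks about 1 in 20 such groups, and the quantities overlap, since H2aw is part of the sum for chromosome 11. Tdg itself was at 7.75 CPM in line 1 and 8.49 to 10.6 CPM in the others. What sets line 1 apart was not tested.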

How the results depend on the processing

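With the edgeR test as described, 0 members were called in each comparison. In Tdg+/- against wt, DESeq2 and edgeR without a filter each called 3 (H2bu2, H2aw and H2ac12), and 3 surrogate variables, which left 1 residual degree of freedom, gave 17, where these choices called 5.36%, 1.18% and 24.1% of all genes. Leaving out single lines gave 0 to 2. In Tdg-/- against wt, DESeq2 called 2 (0.704% of all genes), and leaving out single lines gave 0 to 31, the 31 coming without Tdg-/- line 1 (22.1% of all genes). In Tdg-/- against Tdg+/-, RLE factors, no filter and a minimum of 100 reads each gave 1 (H4c11), all 10 lines in 1 fit gave 2, DESeq2 10 and 3 surrogate variables 22, where RLE factors called 9.52%, no filter 6.66%, the minimum 14.9%, DESeq2 23.6%, 10 lines 1834 of 14105 and surrogate variables 6009 of 13962 genes, and leaving out single lines gave 0 to 28, the 28 again without Tdg-/- line 1 (40.6% of all genes). The median log2 fold change of the members in Tdg-/- against wt was 0.17 with 3 surrogate variables, against 0.40. As summed TPM, the log2 ratio was 0.13 for Tdg-/- over wt and -0.05 for Tdg-/- over Tdg+/-, against 0.38 and 0.22 in CPM. The causes of these differences were not tested. With the replicate number as a block, 0 members were called in each comparison, and those higher at an unadjusted p under 0.05 in Tdg-/- against wt went from 31 to 13, against 9.13% and 5.43% of all genes. In that comparison the deviations of lines with the same number had correlations of 0.163, 0.095 and 0.187, where other pairs had a median of -0.113 to -0.029, and lines 1 and 3 but not line 2 correlated best with their own number. In the comparisons with Tdg+/- lines the correlations ran from -0.206 to 0.09. Since not every correlation was over 0.1, the numbers were not taken to pair the lines, which for Tdg-/- and wt is a narrow decision. Among the named members, 52 fitted values changed sign under an alternative, and in no case was the member called with or without that choice. In Tdg+/- against wt, leaving out single lines took the log2 fold change from -0.023 to 0.226 for H1f1, -0.07 to 0.137 for H1f3, -0.026 to 0.528 for H1f6, -0.748 to 0.169 for H2ac1, -0.028 to 0.311 for H2ac8, -0.069 to 0.213 for H3c6, -0.021 to 0.157 for H4c11, -0.014 to 0.298 for H4c17 and -0.502 to 0.147 for Hist1h2br. In Tdg-/- against wt, leaving out single lines took the log2 fold change from -0.595 to 0.301 for H2ac1, -0.309 to 0.003 for H2ac12, -0.011 to 0.19 for H2ac24, -0.43 to 0.518 for H2bc1, -0.043 to 0.234 for H3c6 and -0.494 to 0.151 for Hist1h2br. In Tdg-/- against Tdg+/-, leaving out single lines took the log2 fold change from -0.125 to 0.256 for H1f6, -0.181 to 0.443 for H2ac1, -0.046 to 0.09 for H3c6, -0.167 to 0.056 for H4c4 and -0.149 to 0.218 for Hist1h2br. Other choices that turned the sign gave, in Tdg+/- against wt, 0.012 for H1f3 with no filter, 0.005 for H1f3 with all 10 lines in 1 fit and 0.006 for H1f3 with the replicate block. Other choices that turned the sign gave, in Tdg-/- against wt, -0.012 for H2ac21, -0.296 for H2ac22, -0.215 for H2ac24, -0.132 for H2bu2 and 0.797 for Hist1h2br with 3 surrogate variables. Other choices that turned the sign gave, in Tdg-/- against Tdg+/-, -0.011 for H1f6 with no filter, -0.009 for H1f6, -0.169 for H2ac1, -0.006 for H2bc8 and 0.091 for Hist1h2br with 3 surrogate variables, 0.021 for H3c6 with RLE factors, 0.021 for H3c6 with DESeq2, 0.014 for H3c6 with a minimum of 100 reads and 0.018 for H3c6 with the replicate block. The other values of named members kept their sign, and 82 passed the threshold that they had missed.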
